A study of Mus musculus with 7 samples.

Results

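Resp18, Ptprn, Dnajb2, Tuba4a and A630095N17Rik are neighbours on mouse chromosome 1 and lie just outside the segment turned round in the Inv1 inversion. They were taken by name as 5 of the 103 genes in each table of contact between a gene's start site and an enhancer region, over 5 tables (Inv1, Inv2, Inv3, Inv4 and WT). They were chosen by these table values, for high contact in Inv1 beside WT, so the values are a description and carry no test. The 5 symbols were all found as current symbols in the RefSeq table.

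The study used capture Hi-C, which counts ligated pairs of DNA fragments that were close in the nucleus, over 10 Mb around Epha4, a gene for an ephrin receptor that is active in the limb bud. The libraries were Inv1DelCTCF limb buds (Inv1 with a further deletion whose label names CTCF), Inv1 embryonic stem cells (ESCs), Inv1, Inv2, Inv3 and Inv4 limb buds, and WT limb buds. All limb buds were from E11.5 embryos, with fore- and hindlimb material of 10 embryos pooled per condition according to the series design text. Each condition was 1 library, so no difference below has a replicate check and no p-value is given. The inversions were made with CRISPR/Cas9. The labels enter G4 ESC as the cell type of all 7 libraries and do not say how many clones or lines the mutants came from, and the word Distal in the titles of all but the ESC library is not explained. The maps held 3903613 to 5155174 recovered read pairs in the 4 libraries where these could be counted. The Inv2, Inv3 and Inv4 maps appear to have had a share of the WT map subtracted before deposit, which the labels do not describe, and between 28.8% and 31.3% of their listed values were negative. Their low values are therefore less certain than those of Inv1 and WT. No RNA was measured, so the tissue could not be checked against marker genes, and contact says nothing here of whether a gene was on.

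Chromosomes are folded into domains within which sequences meet more often than across the border, and the protein CTCF binds DNA at many such borders. An enhancer usually acts on promoters of its own domain. An inversion that spans a border carries part of one domain into its neighbour. Ptprn (also called IA-2) encodes a membrane protein of dense-core secretory granules that is related to tyrosine phosphatases and is an autoantigen in autoimmune diabetes. Resp18 encodes a protein of the secretory pathway of neuroendocrine cells. Dnajb2 encodes a co-chaperone that works with heat shock proteins and is abundant in neurons, and Tuba4a an alpha-tubulin, a building block of microtubules. A630095N17Rik is listed by RefSeq as protein coding.

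The promoters are shown because they lie at the start sites whose contact was scored. The RefSeq table (GRCm38.p6, a newer build than the mm9 of the contact maps, so that these positions cannot be set on the maps) held 7 windows for the 5 genes, each with 250 bases before and 50 after a start site. Those of the highest genes in Inv1, Ptprn (chr1:75264159-75264458, minus strand) and Resp18 (chr1:75278366-75278665, minus strand), and of their neighbour Dnajb2 (chr1:75236173-75236472, plus strand) read as follows, with TGACG in capitals on either strand.
Ptprn: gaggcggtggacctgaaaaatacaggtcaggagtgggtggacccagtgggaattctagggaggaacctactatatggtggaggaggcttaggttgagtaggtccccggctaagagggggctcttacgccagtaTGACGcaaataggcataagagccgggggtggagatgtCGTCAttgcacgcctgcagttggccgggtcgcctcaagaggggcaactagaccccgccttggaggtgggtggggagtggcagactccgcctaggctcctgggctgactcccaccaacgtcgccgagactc
Resp18: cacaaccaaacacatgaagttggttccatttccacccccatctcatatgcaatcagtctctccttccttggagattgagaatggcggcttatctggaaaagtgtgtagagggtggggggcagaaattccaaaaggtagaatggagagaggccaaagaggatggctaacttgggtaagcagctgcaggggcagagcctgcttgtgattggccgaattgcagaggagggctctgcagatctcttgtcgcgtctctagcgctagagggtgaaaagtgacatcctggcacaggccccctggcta
Dnajb2: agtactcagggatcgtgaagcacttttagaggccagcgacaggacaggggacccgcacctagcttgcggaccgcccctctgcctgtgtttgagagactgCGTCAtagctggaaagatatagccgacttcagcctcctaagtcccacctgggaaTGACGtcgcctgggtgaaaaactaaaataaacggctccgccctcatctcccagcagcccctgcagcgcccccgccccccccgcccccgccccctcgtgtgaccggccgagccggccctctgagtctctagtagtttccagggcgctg
TGACG is the opening part of the cAMP response element and was chosen because cAMP signalling acts on many neuroendocrine genes. It was found on either strand in 4 of the 7 windows, at positions -117 and -80 from the start site in Ptprn, -151 and -97 in Dnajb2 and -62 in Tuba4a, and in the second window of Dnajb2 at -231. Of all 32851 promoter windows in the table, 20.8% held it. Neither the whole element TGACGTCA (1.79% of all windows) nor the heat shock element GAANNTTC (7.86%) was in any of the 7 windows. The windows differed in composition. The GC content was 60.3% and 59.7% in the first and second windows of Ptprn, 62.3% and 67.7% in those of Dnajb2 and 62.0% in Tuba4a. It was 52.3% in Resp18 and 50.7% in A630095N17Rik, against a median of 52.7% over all windows. The GC box GGGCGG, which overlaps none of the TGACG matches, occurred in Tuba4a, in both windows of Dnajb2 and in the second window of Ptprn, and in 35.7% of all windows. The CCAAT box was found in Resp18 alone among the 7 windows (37.4% of all windows), and TATAAA in none of them (13.6%). No searched motif was thus found in all 5 genes, and Resp18 and A630095N17Rik had neither TGACG nor a GC box. A match describes letters only.

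Contact of the 5 genes with the enhancer region was high in Inv1 and low in WT. Ptprn, the granule membrane protein gene, was at 22.99 scaled units with Inv1, -0.326 with Inv2, 0.102 with Inv3 and 4.16 with Inv4, against 1.35 in WT. Resp18, its neuroendocrine neighbour, was at 21.4 with Inv1, 2.198 with Inv2, 3.997 with Inv3 and 4.86 with Inv4, against 0.682 in WT. These were the highest and second-highest values of the 103 genes in Inv1, where the levels were 16.98 and 31.4 times those of WT on the deposited scales. The units are the authors' own and how each table was scaled is not stated, so a level can be ranked within a table, while a ratio between tables also holds any difference in scale.

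Dnajb2, the co-chaperone gene, was at 18.1 with Inv1, -0.0933 with Inv2, 4.51 with Inv3 and 2.009 with Inv4, against 0.679 in WT. A630095N17Rik was at 16.02 with Inv1, 3.33 with Inv2, 4.51 with Inv3 and 3.29 with Inv4, against 0.335 in WT. Tuba4a, the tubulin gene, was at 13.9 with Inv1, 0.378 with Inv2, 1.84 with Inv3 and 3.35 with Inv4, against 0.739 in WT. For all 5 genes the Inv1 value was above every other value of the gene, and the lowest Inv1 value, that of Tuba4a, was above the highest value that any of the 5 reached elsewhere, 4.86. Dnajb2 and A630095N17Rik had the same value in Inv3 and different values in the other 4 tables. No other gene shared a value with any of the 5.

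**Figure D1:**
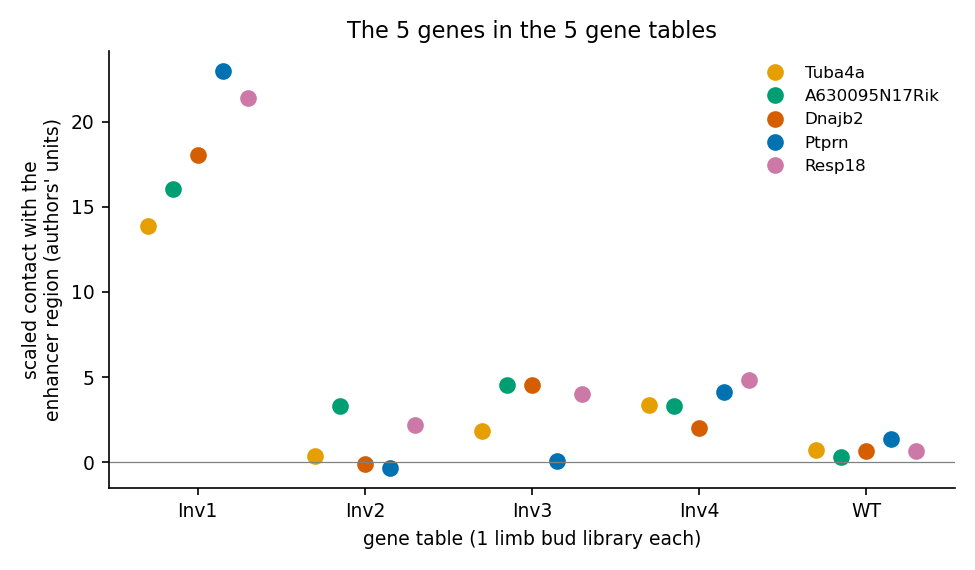
Scaled contact with the enhancer region (authors' units, vertical axis) for the 5 genes in the Inv1, Inv2, Inv3, Inv4 and WT gene tables (horizontal axis), 1 point per gene and library, with no error since each table is 1 library. The Inv1 points lie between 13.9 and 22.99 and all others at or below 4.86.

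Within Inv1 the levels climbed with gene order up to Ptprn. They were 13.9 at Tuba4a, 16.02 at A630095N17Rik, 18.1 at Dnajb2, 22.99 at Ptprn and 21.4 at Resp18, which takes 4 of the 5 genes into the top 5 of the table, while Tuba4a was in place 8. Nhej1, a DNA end-joining gene that lies further from the breakpoint, was in place 4 at 16.8, and Glb1l and Stk16, which share a value of 14.6, also stood above Tuba4a. The step to the next gene was 2.14 from Tuba4a to A630095N17Rik, 2.04 to Dnajb2, 4.92 to Ptprn and -1.60 to Resp18. Beyond Resp18 the next gene, Dnpep (an aminopeptidase), was 19.7 lower, at 1.69 in Inv1 against 1.01 in WT.

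To show how far low values scatter between tables, the difference to WT over 35 genes at the ends of the tables, outside the Epha4 and Pax3 domains, had an SD of 0.321 with Inv1, 0.406 with Inv2, 0.608 with Inv3 and 0.601 with Inv4. These genes have low contact, so the SD gives no error for the Inv1 values of the 5 genes. In WT, Tuba4a (0.739), Resp18 (0.682) and Dnajb2 (0.679) lay near each other, with Ptprn (1.35) above them and A630095N17Rik (0.335) below.

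**Figure D2:**
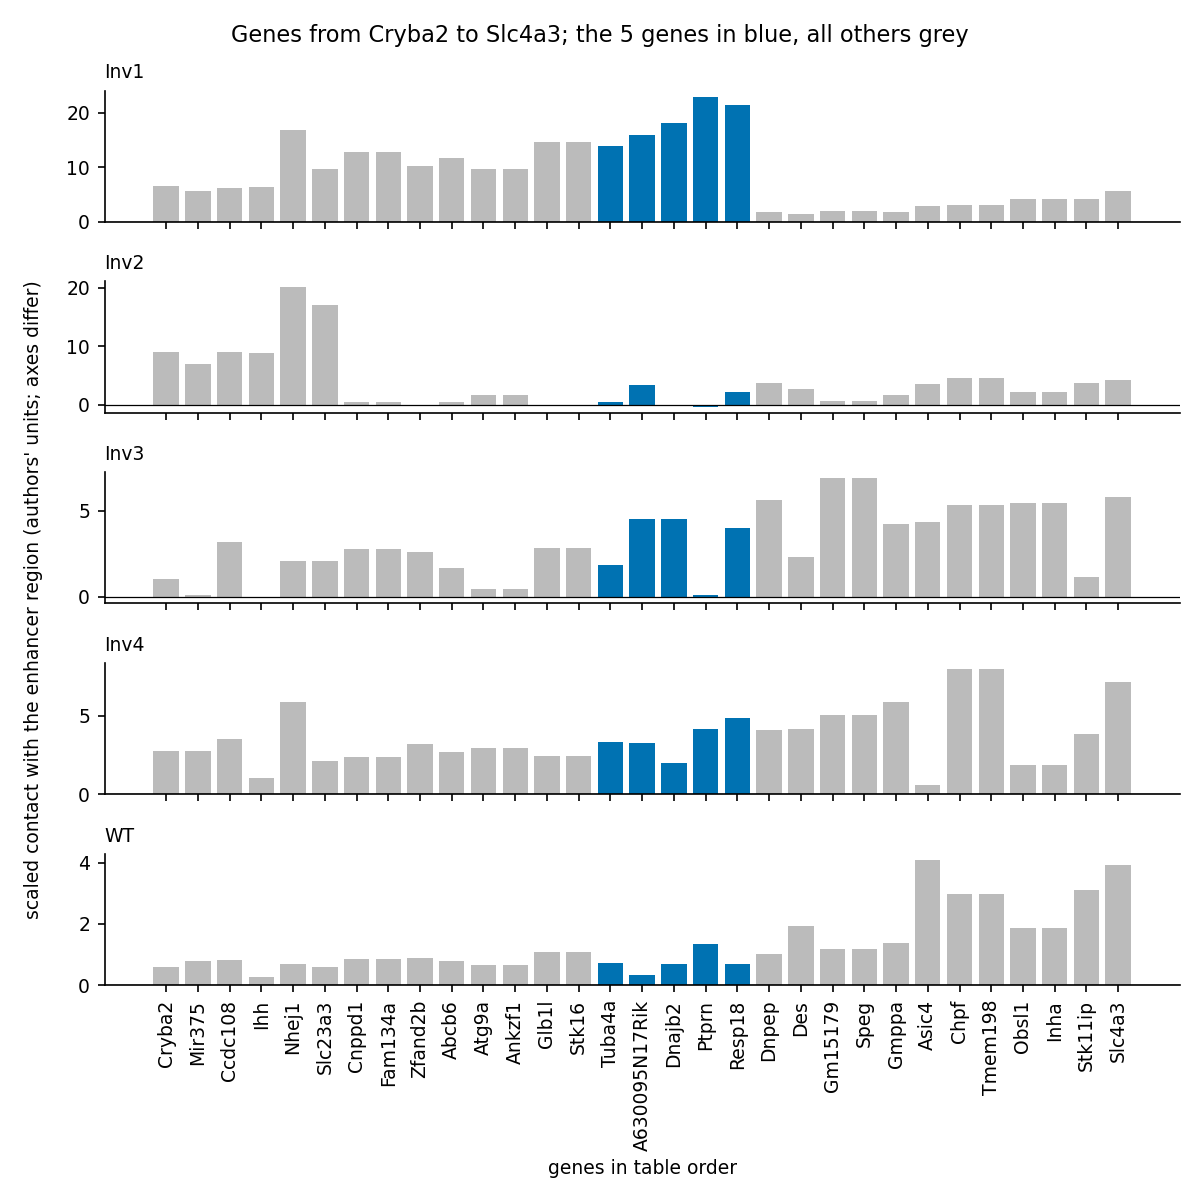
Scaled contact with the enhancer region (authors' units, vertical axes, which differ between panels) for genes in table order from Cryba2 to Slc4a3, with the 5 genes in blue, in Inv1, Inv2, Inv3, Inv4 and WT from top to bottom. In Inv1 the blue bars climb to 22.99 at Ptprn and end at a fall to 1.69 at Dnpep, and in Inv2 the high bars stop left of the blue genes.

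In Inv1 all 5 genes were over 2-fold above WT, with log2 ratios (pseudocount of 0.5, negative values set to 0) of 3.66 for Ptprn, 4.21 for Resp18, 3.98 for Dnajb2, 4.31 for A630095N17Rik and 3.54 for Tuba4a. Over the whole table of 103 genes, 35.9% passed 2-fold upward in Inv1 and 3.88% downward. This contrast chose the 5 genes, so the count adds nothing to the values. The median log2 ratio was 3.98 for the 5 genes and 0.62 for all genes. The 8 genes from Cnppd1 to Stk16, on the side away from the breakpoint, were all over 2-fold above WT too, with a median of 3.25 and values of 9.78 to 14.6 in Inv1.

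In Inv2 and Inv3 the 5 genes did not all move one way. In Inv2, A630095N17Rik and Resp18 were over 2-fold above WT (log2 ratios of 2.199 and 1.19) and Ptprn and Dnajb2 over 2-fold below (-1.89 and -1.24), where 19.4% of all genes were above and 16.5% below. The values of Ptprn and Dnajb2 were negative there, so their ratios rest on the pseudocount. The difference to WT was -1.68 for Ptprn and -0.772 for Dnajb2 in Inv2. With a pseudocount of 5 neither direction held a gene of the 5, against 7 of all genes above and 0 below. In Inv3, A630095N17Rik, Dnajb2 and Resp18 were above (2.59, 2.09 and 1.93) and Ptprn below (-1.62), where 45.6% of all genes were above and 10.7% below. With the larger pseudocount none of the 5 passed in Inv3, against 5 of all genes above and 0 below.

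In Inv4 the 5 genes were all over 2-fold above WT, at log2 ratios of 1.09 for Dnajb2, 1.33 for Ptprn, 1.64 for Tuba4a, 2.18 for Resp18 and 2.18 for A630095N17Rik. Most genes of the table did so as well: 52.4% were above and 6.80% below, and the median of all genes was 1.08, against 1.64 for the 5. Centred on that median gene, 2 of the 5 remained over 2-fold, against 24 of all 103 genes, and with a pseudocount of 5 none did, against 11 of all genes. Over the 4 inversions Ptprn had the widest span of the 5, from a log2 ratio of -1.89 in Inv2 to 3.66 in Inv1.

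The 3 genes outside the 5 most like each of them all lay on the side away from the breakpoint. All but Ccdc108, which lies further off, were among the genes from Cnppd1 to Stk16. Likeness was the distance between log2 levels (pseudocount of 0.5, negative values set to 0) over the 5 tables. Ptprn, Dnajb2, Glb1l, Stk16 and Zfand2b were all below 0 in Inv2 and so counted as equal there. Tuba4a was nearest to Abcb6, a transporter gene, at a distance of 0.383, and then to Cnppd1 and Fam134a at 0.677, which share all their values. Dnajb2 was nearest to Glb1l and Stk16 at 0.813, and then to Zfand2b at 1.22. A630095N17Rik and Resp18 were nearer to each other (0.973) than to any gene outside the 5, of which Ccdc108 (2.01) and Cnppd1 with Fam134a (1.97) came closest. Ptprn was further from its nearest gene than the other 4 were from theirs, with Tuba4a at 2.33 and Abcb6 at 2.37, followed by Atg9a and Ankzf1 at 2.63. The scale of each table is not known, so these distances describe the deposited values only.

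Genes with related roles varied in which inversion they were highest. A list of 9 genes put together around neuroendocrine and neuronal roles, which holds Ptprn and Resp18 and also the villin gene Vil1 and the chondroitin synthesis gene Chpf, had 6, 5, 5 and 6 genes over 2-fold above WT in Inv1, Inv2, Inv3 and Inv4, and 0, 1, 2 and 1 below. The shares of all genes above were 35.9%, 19.4%, 45.6% and 52.4% in the same order, and those below 3.88%, 16.5%, 10.7% and 6.80%. Ptprn and Resp18, which were chosen for these values, are among the 6 in Inv1. Its median log2 ratios were 1.40, 1.19, 1.34 and 1.33, against 0.62, 0.0044, 0.81 and 1.08 for all genes. Mir375, a microRNA gene of pancreatic islet cells, was at 5.62 with Inv1, 6.98 with Inv2, 0.0681 with Inv3 and 2.77 with Inv4, against 0.784 in WT. Cdk5r2, a neuronal kinase activator gene, was at 5.44 with Inv1, 7.09 with Inv2, 20.05 with Inv3 and 1.81 with Inv4, against 0.365 in WT. Both were thus over 2-fold above WT in Inv1, but their highest values were in Inv2 and Inv3. Fev, a transcription factor gene of serotonergic neurons, was at 4.28 with Inv1, 6.73 with Inv2, 36.4 with Inv3 and -0.0665 with Inv4, against 1.31 in WT. Scg2, which encodes the granule protein secretogranin II, lies near the other end of the tables and was at 0.305 in Inv1 and below 0 in Inv2 to Inv4, against 0.146 in WT. The highest value of Fev was in Inv3. The difference of Scg2 to WT stayed within the SD of the table ends in all 4 inversions. Scg2 is itself among the 35 end genes that give this SD, so it is not judged by a separate set.

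A list of 7 genes was put together around chaperone and tubulin roles, and it also holds the kinase genes Stk36 and Stk16. Of the 7 genes, 6 were in the tables. Of these, 6, 2, 4 and 5 were over 2-fold above WT in Inv1 to Inv4, and 0, 2, 0 and 0 below, against the same shares of all genes as above, and 2 of the 6 are Dnajb2 and Tuba4a, which were chosen for their Inv1 values. The medians were 2.37, 0.018, 1.58 and 2.74. Ttll4, which encodes an enzyme that adds glutamates to tubulin, was at 1.70 with Inv1, 3.91 with Inv2, 4.45 with Inv3 and 17.5 with Inv4, against 0.447 in WT. Bcs1l, a gene for a chaperone of the mitochondrial respiratory chain, was at 0.910 with Inv1, 2.08 with Inv2, 0.339 with Inv3 and 13.7 with Inv4, and listed at 0 in WT. Stk36, a kinase gene with a role in cilia, was at 1.66 with Inv1, 0.917 with Inv2, 5.67 with Inv3 and 13.6 with Inv4, against 0.480 in WT. These 3 genes were highest in Inv4. Stk16, the kinase gene next to Tuba4a, was at 14.6 with Inv1, -0.194 with Inv2, 2.86 with Inv3 and 2.45 with Inv4, against 1.09 in WT. It was highest in Inv1, as Dnajb2 and Tuba4a were.

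The contact maps show what the sequence around the 5 genes met. The enhancer region of the tables is not given and how the tables were made from the maps is not known, so the map regions below do not stand for it. The bin factors of each mutant map matched those of WT read backwards over a segment that started at 75.27 Mb with Inv1, 75.13 Mb with Inv2, 74.93 Mb with Inv3 and 74.80 Mb with Inv4 and ended at 75.90 Mb (chromosome 1, mm9), with left ends that matched nearly as well (within 5%) between 75.26 and 75.30 Mb with Inv1, between 75.13 and 75.14 Mb with Inv2, between 74.92 and 74.97 Mb with Inv3, and between 74.76 and 74.86 Mb with Inv4. In Inv1DelCTCF this range was 75.25 to 75.30 Mb and in Inv1 ESC 75.21 to 75.30 Mb, and both were read with the Inv1 breakpoint. For Inv2, Inv3 and Inv4 the factors were fitted on the negative values alone, most of which, outside the inversions, were close to scaled WT signal. Their left ends and ranges may thus reflect where that signal was placed before deposit rather than reads of the mutants. The fall between Resp18 and Dnpep in Inv1, and that between Slc23a3 (17.03) and Cnppd1 (0.438) in Inv2, put the 13 genes from Cnppd1 to Resp18 between the Inv2 and Inv1 breakpoints. The stretch from 75.13 to 75.27 Mb is 140 kb long and is used below for the 5 genes, which lie nearest the Inv1 breakpoint among the 13. The tables give no positions, so the bin of each gene is not known. The Inv1 breakpoint could lie as far as 75.30 Mb, so genes next to it, Resp18 above all, may fall outside the stretch as cut. In Inv1 the stretch stays in place and the inversion brings the left part of the Epha4 domain (75.62 to 75.90 Mb, called the moved part) next to it. In Inv2, Inv3 and Inv4 the stretch itself is turned round, so its distance to the moved part is that of WT, and it comes closer to the rest of the Epha4 domain (75.90 to 77.51 Mb).

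In Inv1 the stretch exchanged its partners. Contacts with the moved part made up 18.8% ± 0.128 of all contacts of the stretch in Inv1, against 1.01% ± 0.0282 in WT (counting standard errors here and below), from 19935 and 1388 read pairs. This 18.7-fold difference is far outside the counting intervals (18.6% to 19.1% in Inv1, 0.951% to 1.06% in WT), which do not hold differences between embryos. The mean distance was 210 kb in Inv1 and 560 kb in WT. Relative to other pairs of bins at the same distance in the same map, contact was 1.55 times the mean in Inv1 and 0.229 times in WT. Contacts with the sequence between the Inv1 breakpoint and the WT border (75.27 to 75.62 Mb), which lies further off in Inv1, were at 5.81% ± 0.0730 in Inv1, against 14.6% ± 0.104 in WT. Contacts with the rest of the Epha4 domain were at 4.05% ± 0.0639 in Inv1 and 3.68% ± 0.0534 in WT.

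Bin by bin, contact with the moved part rose toward the breakpoint in Inv1. The 14 bins of the stretch ran from 12.6% to 35.8% of their contacts in Inv1, against 0.879% to 1.20% in WT. The 7 bins nearest the breakpoint averaged 23.7% in Inv1 and 1.07% in WT, and the 7 bins further away 13.9% in Inv1 and 0.947% in WT. The last bin, at 75.26 Mb, was the highest in Inv1, Inv1DelCTCF and Inv1 ESC alike. How this climb relates to the table levels gene by gene was not tested, since the bin of each gene is not known, and Resp18, the last of the 5 before the breakpoint, was 1.60 below Ptprn. The next bin, at 75.27 Mb, was at 1.26% in Inv1, although whether that bin is turned round is within the uncertainty of the breakpoint.

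**Figure D3:**
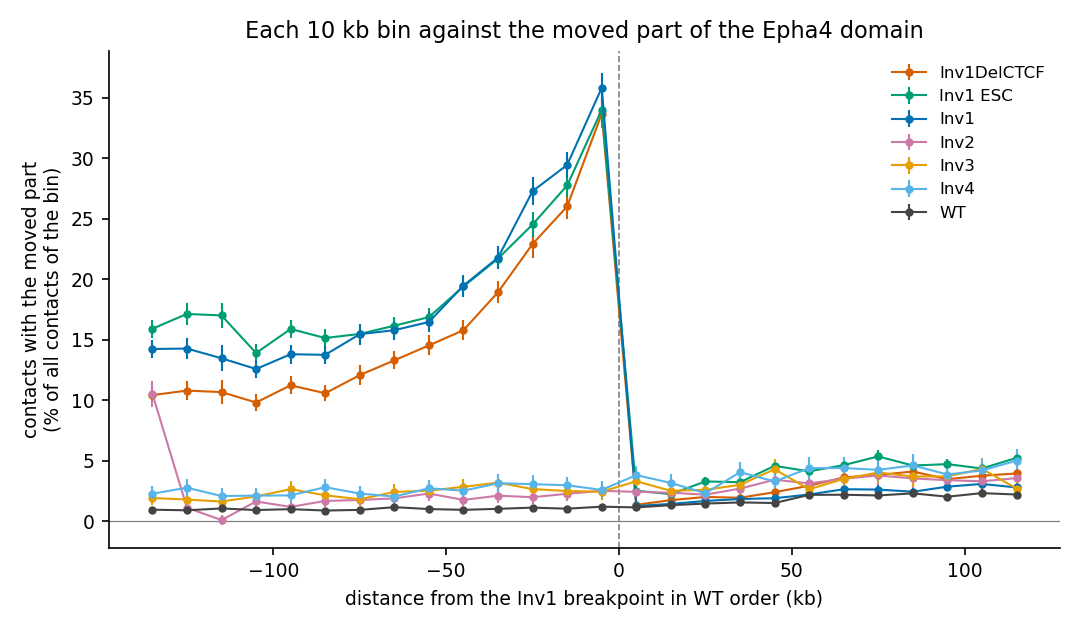
Contacts of each 10 kb bin with the moved part of the Epha4 domain, as a percent of all contacts of the bin (vertical axis), by distance from the Inv1 breakpoint in WT order (horizontal axis, kb), with 95% counting intervals, in 7 libraries. Left of the breakpoint the 3 libraries that carry Inv1 climb to between 33.7% and 35.8%, and WT stays at or below 1.20%.

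In Inv2 the same stretch met the other side of the split domain. Contacts with the rest of the Epha4 domain were at 34.03% ± 0.272 with Inv2, 11.2% ± 0.178 with Inv3 and 6.93% ± 0.159 with Inv4, against 3.68% ± 0.0534 in WT. The order follows the mean distance of the stretch to that region, which was 875 kb with Inv2, 1075 kb with Inv3 and 1205 kb with Inv4, against 1505 kb in WT. Relative to the mean at each distance, contact was 2.12 with Inv2, 0.874 with Inv3 and 0.593 with Inv4, against 0.543 in WT. So in Inv2 the stretch exceeded other pairs of the same map at its new distance, while in Inv3 and Inv4 it did not. The means of Inv2 to Inv4 come from maps with the apparent subtraction of WT signal. Their ratios are therefore not on the same base as that of WT, and the part of the subtraction was not tested.

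Contacts of the stretch with the moved part were at 2.34% ± 0.0817 with Inv2, 2.32% ± 0.0870 with Inv3 and 2.54% ± 0.0929 with Inv4, against 1.01% ± 0.0282 in WT, at an unchanged distance of 560 kb. The Inv2 share leans on its outermost bin, which holds the breakpoint and was at 10.5%, and on its last 40 kb next to the right breakpoint, which took 0.980% of the 2.34%. Without the outer bin at either end the log2 ratio to WT was 0.72 in Inv2, in place of 1.22. The counting errors of Inv2 to Inv4 are approximate, and the part that the apparent subtraction of WT signal has in these shares was not tested.

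**Figure D4:**
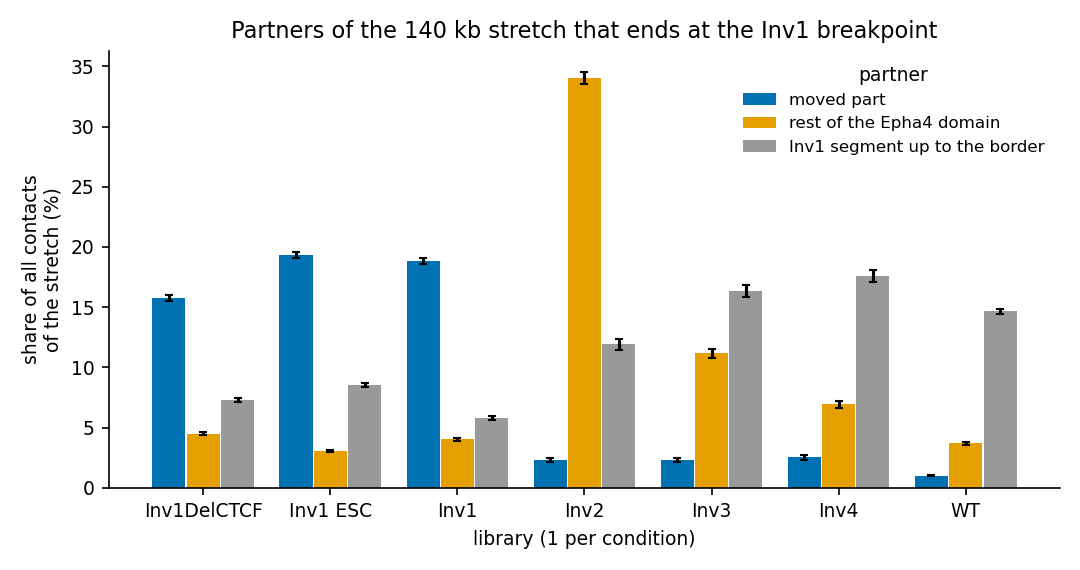
Share of all contacts of the 140 kb stretch (vertical axis, percent) that fall on the moved part, the rest of the Epha4 domain and the Inv1 segment up to the WT border, in 7 libraries of 1 per condition, with 95% counting intervals (approximate in Inv2 to Inv4). The moved part takes 15.8% to 19.4% in the 3 libraries with Inv1, and the rest of the domain 34.03% in Inv2.

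With the further deletion on the Inv1 chromosome, the stretch met the moved part less than in Inv1 and far more than in WT. Neither Inv1DelCTCF nor the Inv1 ESCs have a gene table, so these values did not take part in the choice of the genes. The moved part took 15.8% ± 0.121 in Inv1DelCTCF, against 18.8% ± 0.128 in Inv1, which is -3.06 percentage points (Inv1DelCTCF minus Inv1) with a counting interval of -3.41 to -2.72. The Inv1DelCTCF share was 15.7 times that of WT. The 7 bins nearest the breakpoint averaged 20.7% in Inv1DelCTCF and 23.7% in Inv1, and the 7 bins further away 10.8% in Inv1DelCTCF and 13.9% in Inv1.

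Among 7 pieces of the moved part, the far end showed the largest difference. Its first 40 kb beside the WT border (75.62 to 75.66 Mb), now the end most distant from the 5 genes, took 1.51% ± 0.0412 of the contacts of the stretch in Inv1DelCTCF, against 3.34% ± 0.0587 in Inv1. Relative to the mean at that distance, this was 1.37 times in Inv1DelCTCF and 3.07 times in Inv1, where it was the highest of the 7 pieces of 40 kb. In the next piece (75.66 to 75.70 Mb) the values were 1.35 in Inv1DelCTCF and 1.87 in Inv1. In the last piece, next to the new join, they were 0.916 in Inv1DelCTCF and 0.953 in Inv1. In WT all 7 pieces lay between 0.199 and 0.275.

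**Figure D5:**
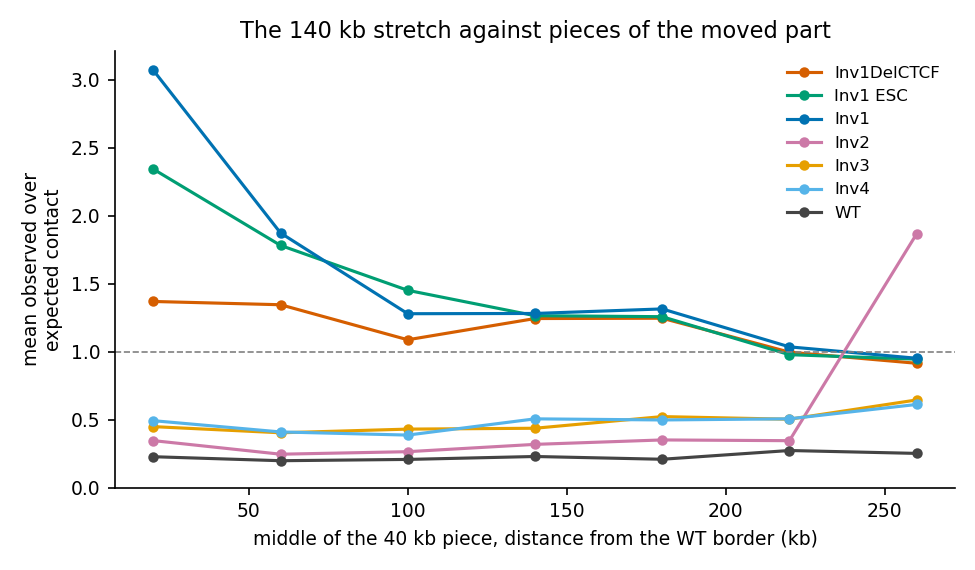
Mean observed over expected contact of the 140 kb stretch with 40 kb pieces of the moved part (vertical axis) by distance from the WT border (horizontal axis, kb), in 7 libraries, with the dashed line at the mean of all pairs at the same distance. The piece beside the border stands at 3.07 in Inv1, 2.34 in Inv1 ESC and 1.37 in Inv1DelCTCF, against 0.229 in WT, and in Inv2 the piece next to the right breakpoint is at 1.87.

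With the sequence between the Inv1 breakpoint and the WT border, the stretch had 7.30% ± 0.0830 of its contacts in Inv1DelCTCF and 5.81% ± 0.0730 in Inv1, which is 1.49 points more (counting interval 1.27 to 1.70). That sequence lies beyond the moved part on the Inv1 chromosome. Contacts within the stretch itself were at 46.5% in Inv1DelCTCF and 46.2% in Inv1, and the counting interval of the difference (-0.189 to 0.760 points) holds 0. This interval is too narrow, since each pair within the stretch entered the share from both of its bins, with its error not raised to match.

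In ESCs with Inv1 the moved part took 19.4% ± 0.120 of the contacts of the stretch, against 18.8% ± 0.128 in Inv1 limb buds, a difference of 0.518 points (counting interval 0.174 to 0.861). The share was thus close, but relative to the mean at each distance contact was lower, at 1.43 in ESCs and 1.55 in limb buds. Contacts within the stretch itself were at 40.7% in ESCs and 46.2% in limb buds. That is -5.53 points (ESCs minus limb buds, counting interval -5.98 to -5.09, too narrow for the reason given above). All shares are parts of 1 total, so this difference also shifts the others. Contacts with the moved part were spread differently as well. The piece beside the WT border was at 2.34 times the mean of its distance in ESCs and 3.07 in limb buds, while the piece at 75.70 to 75.74 Mb was at 1.45 in ESCs and 1.28 in limb buds. The rest of the Epha4 domain took 3.06% ± 0.0531 in ESCs and 4.05% ± 0.0639 in limb buds. The sequence between the Inv1 breakpoint and the WT border took 8.56% ± 0.0791 in ESCs and 5.81% ± 0.0730 in limb buds. No WT ESC map was analysed here, so the part that the cell type has in these differences on a WT chromosome was not tested.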

How the data were processed

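Per the submitters' processing notes, reads were processed with Bowtie2 2.2.6 and Juicer against mm9. Which step used which tool is not stated there. The authors deposited a gene score per table (scaled contact of a start site with an enhancer region; scaling and position not given) and a map per library. Each map holds a signal for each pair of 10 kb bins, which the authors balanced before deposit per the file names. The deposited Inv2 to Inv4 maps are a score, since they hold negative values. Of those outside the inversions, as deposited, 82.7%, 84.1% and 86.6% lay within 1% of the WT map times 0.423, 0.369 and 0.334 with the sign turned, from which a subtraction was inferred.

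Whole read pairs were recovered by fitting 1 factor per bin (100.0% of low values within 0.1 of a whole number), after the fit was tested on simulated data. Totals were 3997506 for Inv1DelCTCF, 4305909 for Inv1 ESC, 3903613 for Inv1 and 5155174 for WT. Counting errors follow from these pairs, and intervals (95%) cover counting error only. Pairs within the stretch entered its sums from both bins without a matching rise in error. The intervals of contacts within the stretch are therefore too narrow, and the errors of its other shares, which have these pairs in their total, are somewhat too low. PCR copies are not independent molecules. Segments were placed by reversing WT factors, and mutant maps were turned to WT order. For Inv2 to Inv4 the mutant factors came from the negative values alone. Contact was also divided by the mean at its distance. Python 3.11.15, numpy 2.4.6 and pandas 2.3.3 were used.

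The genes and lists were chosen with earlier results of these data known. Named were the 5 genes, 3 neighbours on either side, the 3 most alike per gene, the top gene of each table, Epha4 and the listed genes. Nhej1, Slc23a3 and the Cnppd1 to Stk16 genes were named after their values had been seen. With 1 library per condition no test was run.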

Additional observations from a re-analysis of the deposited data

How the results depend on the processing

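No paired analysis was possible because each condition is 1 library and no replicate could be left out. Of 90 summary values under another setting, 69 stayed within their tolerance and 21 moved. The tolerance was the SD of the table ends for log2 ratios, the counting interval for shares and 1.5 times for counts. Some of the 69 could not have moved. A filter for genes at 0.5 or more in WT or the inversion removed none of the 5 genes. Setting negative values to 0 could not change Inv1, Inv1DelCTCF, Inv1 ESC or WT, whose maps hold none. The count of 69 thus overstates how stable the values are. No value past 2-fold changed its sign, which another pseudocount or the filter could not have brought about. The median log2 ratio of the 5 genes in Inv1 (3.98) was 4.64 with a pseudocount of 0.05, 2.02 with one of 5 and 3.35 when centred on the median gene. All 5 remained over 2-fold above WT each time, against 59, 17 and 21 of all 103 genes in the same order. With a pseudocount of 5 the median was 0.66 in Inv3 (1.93) and 0.54 in Inv4 (1.64), and 0 genes were past 2-fold in either direction in Inv2, Inv3 and Inv4. Centred on the median gene, the medians were 1.12 in Inv3 and 0.55 in Inv4, where 2 of the 5 genes were above, against 24 of all genes. Centred on the first 17 and last 18 genes of the tables, a set that holds Epha4 and Pax3, 1 of the 5 genes was below in Inv2 in place of 2. Of all genes, 7 were below there in place of 17. Larger pseudocounts shrink low values by construction. For the share of the stretch with the moved part, the log2 ratio to WT by observed over expected was 2.35 in Inv1DelCTCF (3.97), 2.64 in Inv1 ESC (4.27) and 2.75 in Inv1 (4.23), where the distance is shorter than in WT, and 1.09 in Inv4 (1.33), where it is that of WT and the cause was not tested. With the stretch shortened by 1 bin at each end it was 3.89 in Inv1DelCTCF and 0.72 in Inv2 (1.22), and in Inv2 0.74 with the breakpoints 1 bin further inward, a setting chosen after seeing the data. Limits: 1 library per condition, tables of unstated scale, and low values of Inv2 to Inv4 left by an apparent subtraction.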
